A study of Homo sapiens with 8 samples.

Results

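The genes that copy DNA and supply its building blocks were examined in SET-2 cells carrying ZRSR2 guides or non-targeting guides. A list of 45 gene symbols defined the set, by name and not by a threshold on measured values. All 45 symbols were present among the 25435 symbols of the count table, and all 45 passed the filter on low counts that left 14898 genes for testing. SET-2 is an established human cell line, taken when an essential thrombocythemia had turned into megakaryoblastic leukemia, and the series title places it in the setting of an activating JAK2 mutation that all groups share. ZRSR2 encodes a splicing factor that helps to define the 3′ ends of U12-type (minor) introns.

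The study compared 4 libraries from cells labelled ZRSR2 KO with 4 libraries labelled ZRSR2 wildtype, which carried non-targeting guides. All cells were transduced with a viral vector carrying GFP and a guide RNA, and each genotype had 2 guides used in 2 experiments. RNA was taken on day 20 after transduction for biological replicate 1 and on day 25 for biological replicate 2. Reading experiment 1 and experiment 2 in the sample titles as those replicates is an assumption, so that experiment, day and handling cannot be told apart. The libraries came from cultures of a single line, with 2 libraries for each combination of genotype and experiment. No source used here says that single clones were grown or that the guides of an experiment had separate cultures before transduction, so p-values measure the spread between these libraries.

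Before S phase, the origin recognition complex, CDC6 and CDT1 load the MCM2 to MCM7 ring onto DNA, a step called licensing. Kinases then recruit CDC45 and the GINS complex, which turn the ring into the active helicase, and primase, DNA polymerases, the PCNA clamp and its loader copy both strands. Ribonucleotide reductase, thymidylate synthase and thymidine kinase supply deoxynucleotides for this work. Many of these genes are transcribed under the control of E2F factors as cells approach S phase, so that a bulk level reflects both how many cells are cycling and how much mRNA each one holds.

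That known link to E2F makes the promoters informative, and the stretches around an E2F-type word are shown for 7 genes whose library values follow. RefSeq (GRCh38.p14) held a promoter for 39 of the 45 genes. In the 250 bases before the start site, on either strand, the words TTTCCCGC, TTTCGCGC, TTTGCCGC or TTTGGCGC occurred in 13 of these 39 promoters (33.3%), against 761 of 27305 promoters in the same table (2.79%). The word CCAAT occurred in 23 of 39 (59%), against 33% of all promoters, and TTTGAA or TTCGAA, words of the CHR element of mitotic promoters, in 2 of 39 (5.13%), against 14.6%. In no member promoter did words of different kinds overlap. Each sequence is written 5′ to 3′ on the strand of its gene, with the E2F word or its reverse complement in capitals, and in MCM6 the capitals cover 2 overlapping words. MCM6 and GINS2 encode helicase parts, CDT1 a licensing factor, PCNA the sliding clamp, RFC3 a clamp loader subunit, POLA1 the catalytic subunit of DNA polymerase alpha and TYMS thymidylate synthase.
MCM6, chr2:135876492-135876559, minus strand: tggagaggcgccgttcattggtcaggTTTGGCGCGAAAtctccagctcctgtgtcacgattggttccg
GINS2, chr16:85688955-85689015, minus strand: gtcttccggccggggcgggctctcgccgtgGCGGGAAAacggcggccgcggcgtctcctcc
CDT1, chr16:88803724-88803788, plus strand: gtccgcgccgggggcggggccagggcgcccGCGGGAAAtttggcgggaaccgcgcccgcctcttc
PCNA, chr20:5126644-5126711, minus strand: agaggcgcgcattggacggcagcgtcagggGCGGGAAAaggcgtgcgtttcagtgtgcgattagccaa
RFC3, chr13:33818064-33818131, plus strand: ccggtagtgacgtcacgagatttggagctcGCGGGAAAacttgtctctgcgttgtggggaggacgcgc
POLA1, chrX:24693751-24693818, plus strand: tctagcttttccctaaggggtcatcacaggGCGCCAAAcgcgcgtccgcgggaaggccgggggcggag
TYMS, chr18:657584-657651, plus strand: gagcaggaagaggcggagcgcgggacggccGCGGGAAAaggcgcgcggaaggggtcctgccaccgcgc
A match is a description of letters, not of a bound site.

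The libraries held 31106042 to 71521173 expected counts, and the smallest count of any member in any library was 299. Levels are given as CPM, counts per 1000000 counts, on library sizes scaled by the trimmed mean of M values (TMM), and groups as mean ± SD with n = 4 libraries. ZRSR2 itself was at 29.4, 22.9, 28.3 and 18.7 CPM in the 4 knockout libraries and at 37.9, 39.2, 39.7 and 41.1 CPM in the 4 control libraries. The groups did not overlap, but the change, a log2 value of −0.67 with a standard error (SE) of 0.15, did not pass the edgeR test over all genes (adjusted p = 1). With the experiment as a block, the adjusted p for ZRSR2 was 0.275 in edgeR and 5.38e-04 in DESeq2. For guide 2 alone against the controls, the block gave a log2 change of −0.93 for ZRSR2 that passed in edgeR (adjusted p = 0.0303) and in DESeq2 (4.34e-10), whereas guide 1 (−0.45) did not pass in either. Megakaryocyte markers were all 9 measured, with ITGA2B at 2085 to 2708 CPM but PF4 at 1.1 to 3.03 CPM. The 3 T cell markers summed to at most 0.274 CPM and the B cell gene MS4A1 had no count. Of the monocyte list, LYZ stood at 206 to 267 CPM, and of the epithelial list, CDH1 at 16.9 to 34.1 CPM. Between the experiments the summed megakaryocyte markers ran from 2873 to 3097 CPM in experiment 1 and from 3035 to 3794 CPM in experiment 2, and the erythroid markers from 1428 to 1596 CPM and from 1587 to 2310 CPM. ITGA2B and HBG2 made up most of these sums, and not every marker followed them. ITGB3 ran from 185 to 199 CPM in experiment 1 and from 101 to 187 CPM in experiment 2. PF4 ran from 1.46 to 3.03 CPM and from 1.1 to 1.32 CPM, and EPOR from 103 to 125 CPM and from 84.1 to 107 CPM. The B cell markers summed to 10.3 to 11.5 CPM and 32.5 to 51.2 CPM in experiments 1 and 2, nearly all from CD79A. The part of these marker levels in the differences between experiments was not tested.

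In non-targeting cells the replication genes differed widely in level. On a scale of CPM per kilobase of transcript, TYMS stood highest at 179, followed by MCM3 at 150, MCM7 at 119, MCM2 at 112 and PCNA at 97.5. The lowest were RPA3, the smallest subunit of the single-strand binding complex, at 5.55, DBF4, the activator of the CDC7 kinase, at 5.95, and POLE2, a subunit of DNA polymerase epsilon, at 6.31. On this scale subunits of one complex did not share one level: RPA3 was among the lowest of the set although it forms a complex with RPA1 and RPA2. The scale takes the longest coding transcript annotated as principal, 2020 bases for RPA3. Which transcripts these cells use was not tested, so the order depends on that choice. Reads that fit several genes are shared out by probability, and 9 members have a pseudogene named after them, so their values carry that uncertainty. RRM2, RPA2 and PCNA have 3 each. A gene on the same strand overlaps 12 members, RRM2 (with AC007240.1) and FEN1 (with FADS2) among them. Of the 45 genes, 20 overlap a gene on the opposite strand, TYMS with ENOSF1 and RPA3 with UMAD1 among them. Whether the counting used strand is not given in the sources used here.

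**Figure D1:**
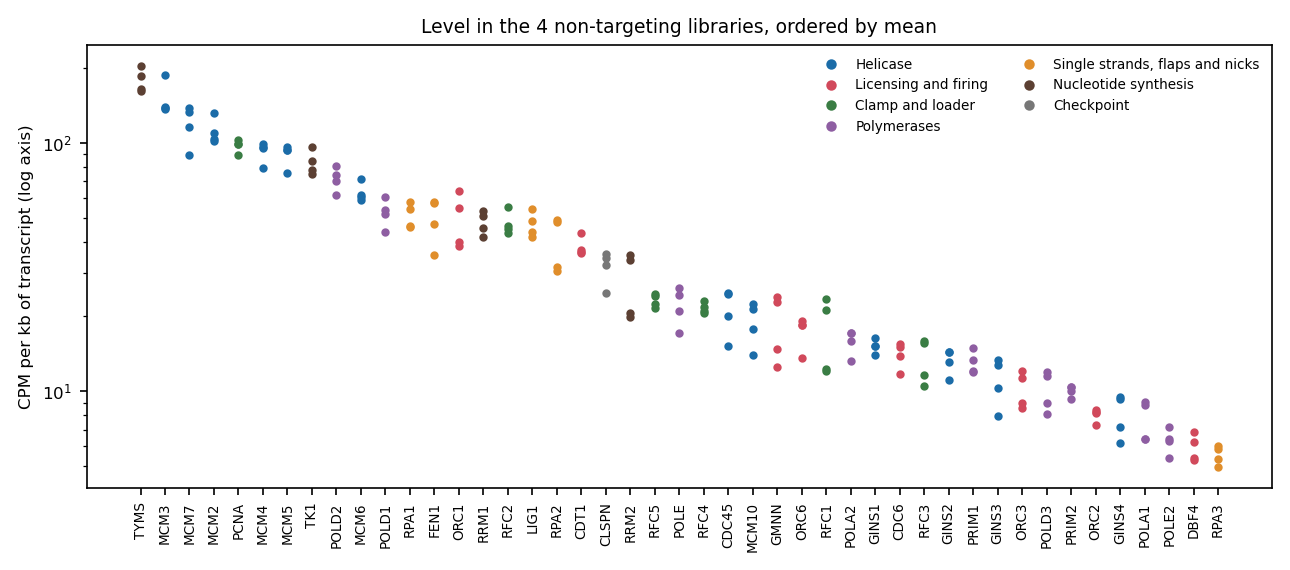
Level of each member in the 4 non-targeting libraries, in CPM per kilobase of transcript on a log axis, with a point per library. TYMS, MCM3, MCM7 and MCM2 lie at the top and RPA3, DBF4 and POLE2 at the bottom.

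The first comparison asked whether the replication genes differed between ZRSR2 guides and non-targeting guides. No member was called: 0 of 45 passed an adjusted p of 0.05 in edgeR's quasi-likelihood test, as for all genes, where 0% passed. This fit of genotype alone leaves the spread between the experiments in its error, and ZRSR2 itself did not pass in it. A missing call is therefore not evidence of an equal level. At an unadjusted p under 0.05 there were again 0 members, against 0.597% of all genes. The members' log2 changes ran from −0.21 to 0.12 with a median of 0.03, with 28 above 0 and 17 below, while over all genes the median was −0.003. No member had 4 knockout libraries all above or all below the 4 control libraries, a state found in 0.678% of genes, and no member reached a 1.5-fold change, which 2.05% of genes did. The summed level of the 45 genes was 5433 ± 199 CPM with ZRSR2 guides and 5383 ± 381 CPM with non-targeting guides.

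Since most genes differed between the experiments, the same comparison was also fitted with the experiment as a block. Again 0 members passed, at the adjusted threshold or at an unadjusted p under 0.05, while 4.63% of all genes had an unadjusted p under 0.05. With DESeq2 and the block, 0.208% of genes passed the adjusted threshold and 0 members were among them. The blocked 95% intervals were taken for each member on its own and for the mean of both ZRSR2 guides. The lowest reached −0.48, for PRIM1, and the highest 0.35, for POLE2. They do not bound the change with a single guide: with guide 2 and the block, PRIM1 was at −0.37 (SE 0.14). Nor do they bound the effect of a full loss, since mean ZRSR2 mRNA in the knockout libraries was 62.9% of that in the controls. All 45 intervals lay within 0.5 of 0 on the log2 scale, and 39 lay within 0.3. Without the block the intervals were wider, from −0.72 to 0.63, both for RFC1, and 38 of 45 lay within 0.5.

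**Figure D2:**
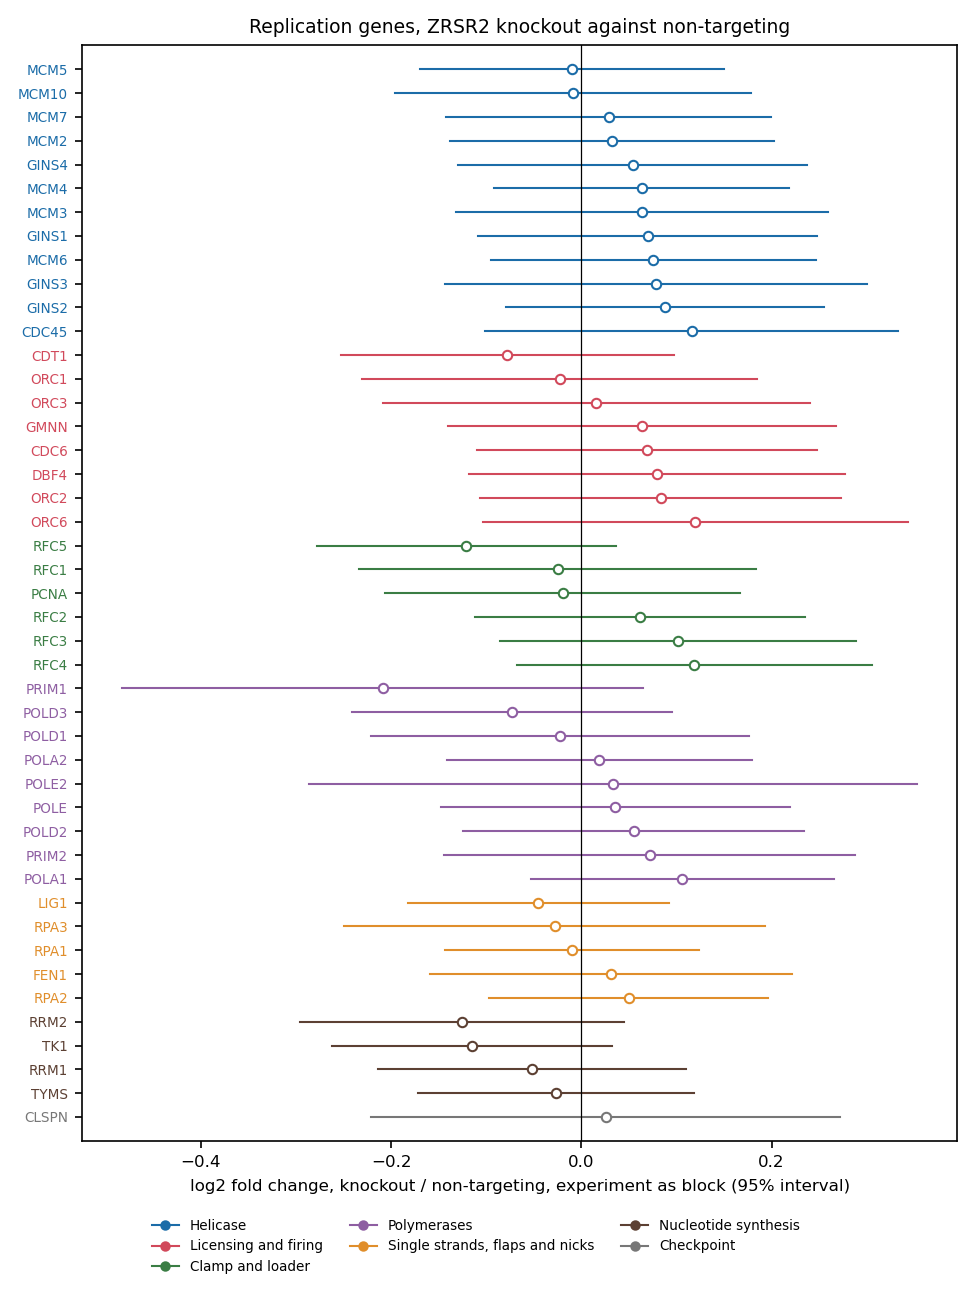
Log2 change of each member between ZRSR2 guides and non-targeting guides, fitted with the experiment as a block, with 95% intervals and colours by role. All 45 intervals include 0 and none passed an adjusted p of 0.05.

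The single-member estimates between genotypes that follow come from the fit of genotype alone unless the block is named. Their SEs therefore include the spread between the experiments, unlike the blocked intervals above. Among the members nearest to a difference was RFC5, a clamp loader subunit. Its level was 33.5, 35.3, 38.3 and 34.4 CPM with ZRSR2 guides and 35.9, 37.1, 40.8 and 40.1 CPM with non-targeting guides, listed as guides 1 and 2 of experiment 1 and then of experiment 2. Both ZRSR2 libraries lay below both control libraries in each experiment, yet the ranges over all 8 overlapped, and the log2 change of −0.12 (SE 0.09) was not significant (edgeR unadjusted p = 0.209). With the experiment as a block, the RFC5 change was −0.12 (SE 0.07, edgeR unadjusted p = 0.120). TK1, the thymidine kinase of the salvage pathway, also had both ZRSR2 libraries below both controls in each experiment, by a narrow margin each time. It read 122, 110, 133 and 137 CPM against 122, 127, 157 and 138 CPM, a log2 change of −0.12 (SE 0.11). PRIM1, the catalytic subunit of primase, was at 14.4, 14.8, 20.7 and 13 CPM against 16.8, 16.7, 18.5 and 20.8 CPM, a log2 change of −0.21 (SE 0.16). Here the library of ZRSR2 guide 1 in experiment 2 lay among the controls and the other 3 lay below them all. PRIM1 shares its strand with a readthrough transcript from NACA, so reads from the pair may be shared.

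RFC4, another loader subunit, was at 31.1, 32.9, 39.4 and 32.5 CPM with ZRSR2 guides and at 30.4, 31.6, 33.3 and 29.8 CPM with non-targeting guides. The log2 change of 0.12 (SE 0.10) rested on ranges that overlapped. ORC6, a subunit of the origin recognition complex, had a log2 change of 0.12 (SE 0.13), with 31.5, 30.7, 32.4 and 28.1 CPM against 29.9, 31.2, 30.1 and 22.1 CPM. One control library, non-targeting guide 2 of experiment 2, was low and the rest overlapped.

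The members most used as readouts of S phase had small estimates between genotypes. PCNA had a log2 change of −0.02 (SE 0.10), MCM2 of 0.03 (SE 0.10), CDC6 of 0.07 (SE 0.12) and TYMS of −0.03 (SE 0.11). RRM2, the subunit of ribonucleotide reductase whose supply varies over the cell cycle, was at 84.9 ± 20.2 CPM with ZRSR2 guides and 94.1 ± 28.4 CPM with non-targeting guides, a log2 change of −0.15 (SE 0.25). With the experiment as a block, the RRM2 change was −0.13 (SE 0.08, edgeR unadjusted p = 0.134). By role, the median log2 change was 0.06 in the 12 helicase genes (10 above 0), 0.05 in the 8 licensing and firing genes, 0.02 in the 6 clamp and loader genes and 0.03 in the 9 polymerase and primase genes. In the 5 genes of single-strand binding, flap cutting and ligation it was −0.01, and in the 4 nucleotide synthesis genes −0.08, with all 4 below 0. None of these members passed the test, and the role groups were given no test of their own. CLSPN, the checkpoint mediator claspin, was at 0.02.

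Within experiment 1, 0 members passed the adjusted threshold (0% of all genes) and 0 had an unadjusted p under 0.05 (2.05% of all genes). The median log2 change was −0.007, with 19 members above 0 and 26 below, while 50.6% of all genes lay above 0. RRM2 had the smallest p, with a log2 change of −0.22, from 105 and 97.8 CPM with ZRSR2 guides and 116 and 121 CPM with non-targeting guides. PRIM1, at −0.20, and TK1, at −0.10, came next. Both ZRSR2 libraries lay on one side of both controls in 17 of 45 members, 6 above and 11 below, beside 36.4% of all genes.

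Within experiment 2 the counts were again 0 at the adjusted threshold (0% of all genes) and 0 at an unadjusted p under 0.05 (4.33% of all genes). That second count depended on every library of experiment 2: it did not stay at 0 whichever of them was left out. Such fits leave 1 library in a group of this experiment, which is assumed to vary like the other groups. The share of all genes at that unadjusted p was not taken for them, so their counts are not given. In the full fit the median log2 change was 0.07, with 33 members above 0 and 12 below, while 50.6% of all genes lay above 0. RFC3 stood at 32.9 and 29.9 CPM against 28 and 25.2 CPM (log2 change 0.24). POLA1 stood at 42.5 and 38.3 CPM against 35.3 and 35.3 CPM (0.20), without overlap as in RFC3. CDC45, the helicase cofactor, stood at 40.7 and 46.5 CPM against 42 and 31.8 CPM (0.24), so that 1 control library lay between the ZRSR2 libraries. Both ZRSR2 libraries lay on one side of both controls in 7 of 45 members, 5 above and 2 below, beside 23.5% of all genes. RFC5 and TK1, both lower with ZRSR2 guides, were the 2 members on the same side in both experiments. The share of all genes in that state was not counted, so no weight is placed on this count.

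The difference of the ZRSR2 effect between experiments was tested directly. No member passed (0 of 45, 0% of all genes), and 0 had an unadjusted p under 0.05 (1.66% of all genes). Without ZRSR2 guide 2 or either non-targeting library of experiment 2, the count at that unadjusted p did not stay at 0. Those fits leave 1 library in a group. In the full fit RFC3, GMNN and POLE2 had the smallest p-values. Their differences were 0.27, 0.29 and 0.39 on the log2 scale, experiment 2 minus experiment 1. GMNN encodes geminin, the inhibitor of CDT1, and its libraries read 28.3 and 27.4 CPM against 28.7 and 30.1 CPM in experiment 1 and 18.8 and 20.9 CPM against 15.8 and 18.6 CPM in experiment 2. For POLE2 the values were 8.4 and 11.6 CPM against 11.4 and 11.2 CPM, and then 14.6 and 11.3 CPM against 9.55 and 12.8 CPM. In POLE2 the library of ZRSR2 guide 1 was the lowest of its experiment in the first case and the highest in the second.

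Each ZRSR2 guide was also compared with all 4 non-targeting libraries, in a fit without the experiment unless the block is named. With guide 1, 0 members passed (0% of all genes) and 0 had an unadjusted p under 0.05 (0.222% of all genes). The 5 members of smallest p were RFC4 at 0.17, PRIM2 at 0.18, ORC2 at 0.16, CDT1 at −0.17 and MCM6 at 0.14, as log2 changes. PRIM2, the large primase subunit, read 24.3 and 27.9 CPM with guide 1 against 23.1, 23.9, 21.5 and 23.9 CPM in the controls. CDT1 read 108 and 113 CPM against 117, 118, 140 and 120 CPM, below each control. MCM6 read 236 and 284 CPM against 225, 230, 266 and 219 CPM, and ORC2 36.2 and 41.2 CPM against 35.4, 36.2, 31.7 and 35.6 CPM. In both genes the guide 1 library of experiment 2 was the highest of these 6 libraries.

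With guide 2, 0 members passed (0% of all genes) and 0 had an unadjusted p under 0.05 (0.658% of all genes). PRIM1 had the largest change, with 14.8 and 13 CPM against 16.8, 16.7, 18.5 and 20.8 CPM, a log2 change of −0.39 that did not pass. Both guide 2 libraries lay below all 4 controls. RFC5 (−0.15), TK1 (−0.14), RRM2 (−0.24) and GINS2 (0.11) followed. With the experiment as a block, PRIM1 and RRM2 reached edgeR unadjusted p-values of 0.0242 and 0.0308, while 4.89% of all genes had an unadjusted p under 0.05. Their adjusted p-values in that edgeR fit were 0.931 and 0.986, and with DESeq2 and the block 0 members passed, against 0.349% of genes.

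The guides were compared with each other as well. No member passed (0 of 45, 0% of all genes), and 0 had an unadjusted p under 0.05 (0.389% of all genes). The median log2 difference, guide 2 minus guide 1, was −0.07, with 37 of 45 members below 0. Over all genes the median was −0.013, with 54.4% below 0. PRIM1 (−0.34), PRIM2 (−0.22), ORC2 (−0.15) and MCM6 (−0.14) were lower with guide 2 and CDT1 (0.18) was higher, none of them significantly. The same order of libraries appeared in the controls of experiment 2. There the second non-targeting library lay below the first in 34 of 45 members with a median of −0.19, beside 35 of 45 and −0.20 for the ZRSR2 guides. Over all genes the shares below were 51.4% and 51.3%. In experiment 1 the corresponding medians were 0.03 and 0.02, with 32 and 28 of 45 members above 0. The numbers 1 and 2 do not name the same sequence in the ZRSR2 and non-targeting groups, and what the second libraries of experiment 2 share was not tested.

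**Figure D3:**
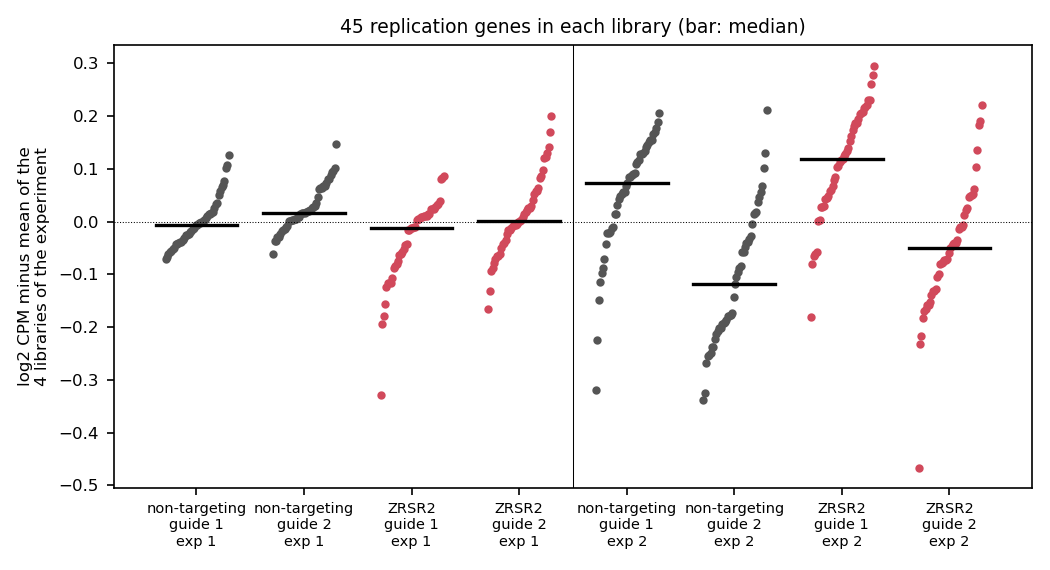
Log2 CPM of each of the 45 genes in each library minus the mean of the 4 libraries of its experiment, with a bar at the median. The medians of experiment 1 lie between −0.01 and 0.02, and those of experiment 2 are 0.12 and −0.05 for ZRSR2 guides 1 and 2 and 0.07 and −0.12 for non-targeting guides 1 and 2.

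In experiment 2 this order left both genotypes with a high and a low library. The library of ZRSR2 guide 1 stood at a median of 0.12 and that of guide 2 at −0.05, and the controls stood at 0.07 and −0.12. The 26 mitosis genes had the same order for the ZRSR2 guides, with medians of 0.04 and −0.17, and the opposite order for the controls, with −0.03 and 0.10. The summed level of the 45 replication genes spanned 5345 to 5457 CPM in experiment 1 (5386 ± 51.0) and 4897 to 5823 CPM in experiment 2 (5430 ± 428).

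Between the experiments members moved in both directions, with a median log2 change of −0.03 over the set. Of 45 members, 23 passed an adjusted p of 0.05 (edgeR), beside 58.2% of all genes. From experiment 1 to experiment 2, 9 of 45 rose (beside 29.6% of all genes) and 14 fell (28.6% of all genes). The groups of 4 libraries did not overlap in 24 members, 10 above and 14 below, beside 56% of all genes. The changes were small: the median absolute log2 change was 0.234 in the members and 0.371 over all genes, and 3 members (6.67%) changed at least 1.5-fold, beside 32.2% of all genes. No member reached a 2-fold change, which 14.4% of genes did. In bulk RNA, fewer cells in S phase and less mRNA per cell cannot be told apart, and neither can experiment, day and library handling.

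**Figure D4:**
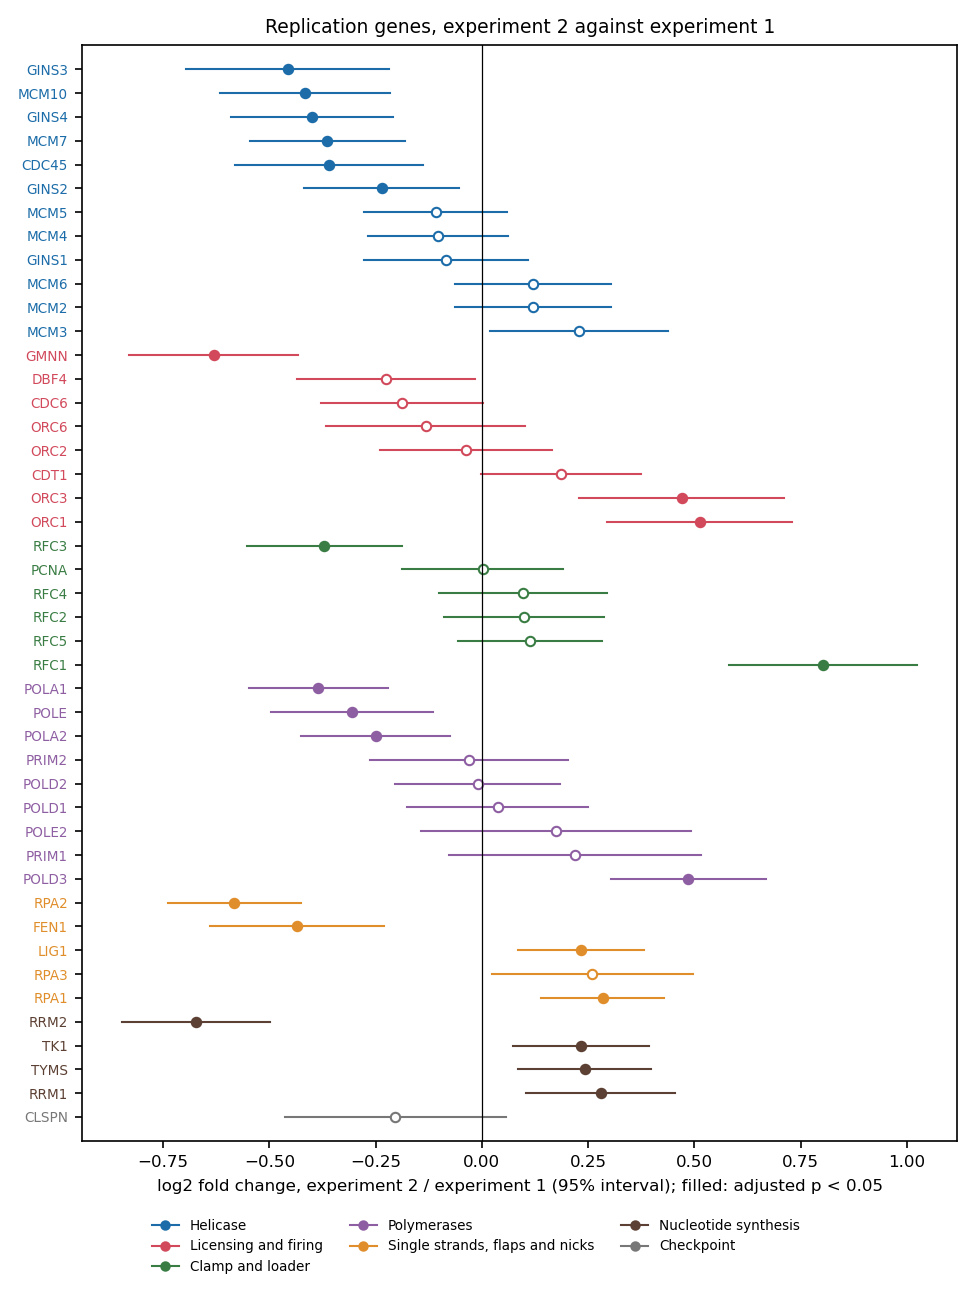
Log2 change of each member from experiment 1 to experiment 2 with 95% intervals, filled where the adjusted p was under 0.05 and coloured by role. The helicase genes that passed all lie below 0, and RFC1 and RRM2 lie at the ends of the range.

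Below, the values of 4 libraries are given in the order ZRSR2 guide 1, ZRSR2 guide 2, non-targeting guide 1 and non-targeting guide 2. Of the 12 helicase genes, 6 fell and 0 rose, beside 28.6% and 29.6% of all genes. With DESeq2 or with guide as a block, 1 of the 12, MCM3, also rose. GINS3, a subunit of the GINS complex, went from 28.3, 31.9, 29 and 30.2 CPM in experiment 1 to 25, 20.5, 23.3 and 18.1 CPM in experiment 2. The experiments did not overlap, and the means of 29.9 ± 1.58 and 21.7 ± 3.07 CPM gave a log2 change of −0.46 (SE 0.11, edgeR adjusted p = 0.00397). MCM10, which helps to activate the assembled helicase, fell by 0.42, GINS4 by 0.40 and GINS2 by 0.24 on the log2 scale. MCM7, a ring subunit, went from 399 ± 10.9 to 310 ± 32.8 CPM (log2 change −0.36), and CDC45 from 51.6 ± 2.6 to 40.3 ± 6.14 CPM (−0.36). GINS1, the other GINS subunit, stood at 52.1 ± 2.58 and 49.2 ± 4.97 CPM, a change of −0.08 that did not pass.

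The remaining MCM ring genes did not pass, and their estimates lay on both sides of 0. MCM2 read 394, 399, 375 and 397 CPM in experiment 1 and 437, 421, 477 and 367 CPM in experiment 2, with overlapping ranges and a log2 change of 0.12 (edgeR adjusted p = 0.232). MCM3 stood at 453 ± 13.5 and 531 ± 74.3 CPM (0.23, adjusted p = 0.0596; it passed under 5 of the alternative settings), and MCM6 at 232 ± 5.02 and 252 ± 28.8 CPM (0.12). MCM4 (−0.10) and MCM5 (−0.11) had small negative estimates. The MCM ring is built from 1 copy of each subunit, yet among the 6 ring genes the log2 changes spanned −0.36 to 0.23. The MCM2 result depended on 1 library: without non-targeting guide 2 of experiment 2 the change was 0.20 and passed (adjusted p = 0.00767).

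Licensing and firing genes moved in both directions. ORC1, the subunit of the origin recognition complex whose level varies over the cell cycle, went from 117, 142, 126 and 121 CPM to 194, 153, 203 and 172 CPM. All 4 libraries of experiment 2 lay above those of experiment 1, and the log2 change was 0.51 (SE 0.10, edgeR adjusted p = 0.00111). ORC3 rose by 0.47, from 21.6 ± 1.94 to 29.9 ± 3.51 CPM, whereas ORC2 (−0.04) and ORC6 (−0.13) did not pass. GMNN fell from 28.3, 27.4, 28.7 and 30.1 CPM to 18.8, 20.9, 15.8 and 18.6 CPM, a change of −0.63 (SE 0.09, edgeR adjusted p = 1.63e-04). Every library of experiment 2 was below every library of experiment 1. CDT1, the protein that geminin holds back, stood at 113 ± 5.15 and 128 ± 14 CPM (0.19, adjusted p = 0.0835 by edgeR). The ratio of GMNN to CDT1 CPM, chosen after the values were seen and given without a test, was 0.246 to 0.262 in experiment 1 and 0.113 to 0.167 in experiment 2.

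CDC6, which helps to load the MCM ring, read 72.9, 74.4, 72.2 and 74.5 CPM in experiment 1 and 74, 61, 66.7 and 56.4 CPM in experiment 2. The first library of experiment 2 lay within the range of experiment 1, and the change of −0.19 did not pass (edgeR adjusted p = 0.0819). It passed without ZRSR2 guide 1 of experiment 2 (−0.26, adjusted p = 0.0293) and without non-targeting guide 1 of experiment 2 (−0.25, adjusted p = 0.0202). DBF4 stood at 25.7 ± 1.98 and 22 ± 2 CPM (−0.23, adjusted p = 0.062).

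Clamp and loader genes moved unequally. PCNA read 121, 131, 135 and 140 CPM in experiment 1 and 151, 120, 135 and 121 CPM in experiment 2. Both means were 132 CPM and the log2 change was 0.00 (SE 0.09, edgeR adjusted p = 0.987). RFC1, the large subunit of the clamp loader, had the largest rise of the set. It went from 53.9, 68.9, 59.7 and 58.5 CPM to 113, 90.2, 103 and 115 CPM, with no overlap. Means of 60.2 ± 6.31 and 105 ± 11.2 CPM gave a 1.75-fold rise (log2 0.80, SE 0.10, edgeR adjusted p = 6.46e-05). RFC3, a small subunit of the same loader, fell from 35.2, 38.8, 38.3 and 37.4 CPM to 32.9, 29.9, 28 and 25.2 CPM (log2 −0.37, edgeR adjusted p = 0.00283). RFC2 (0.10), RFC4 (0.10) and RFC5 (0.11) did not pass. The ratio of RFC3 to RFC1, again chosen after the values were seen, was 0.562 to 0.653 in experiment 1 and 0.22 to 0.332 in experiment 2.

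**Figure D5:**
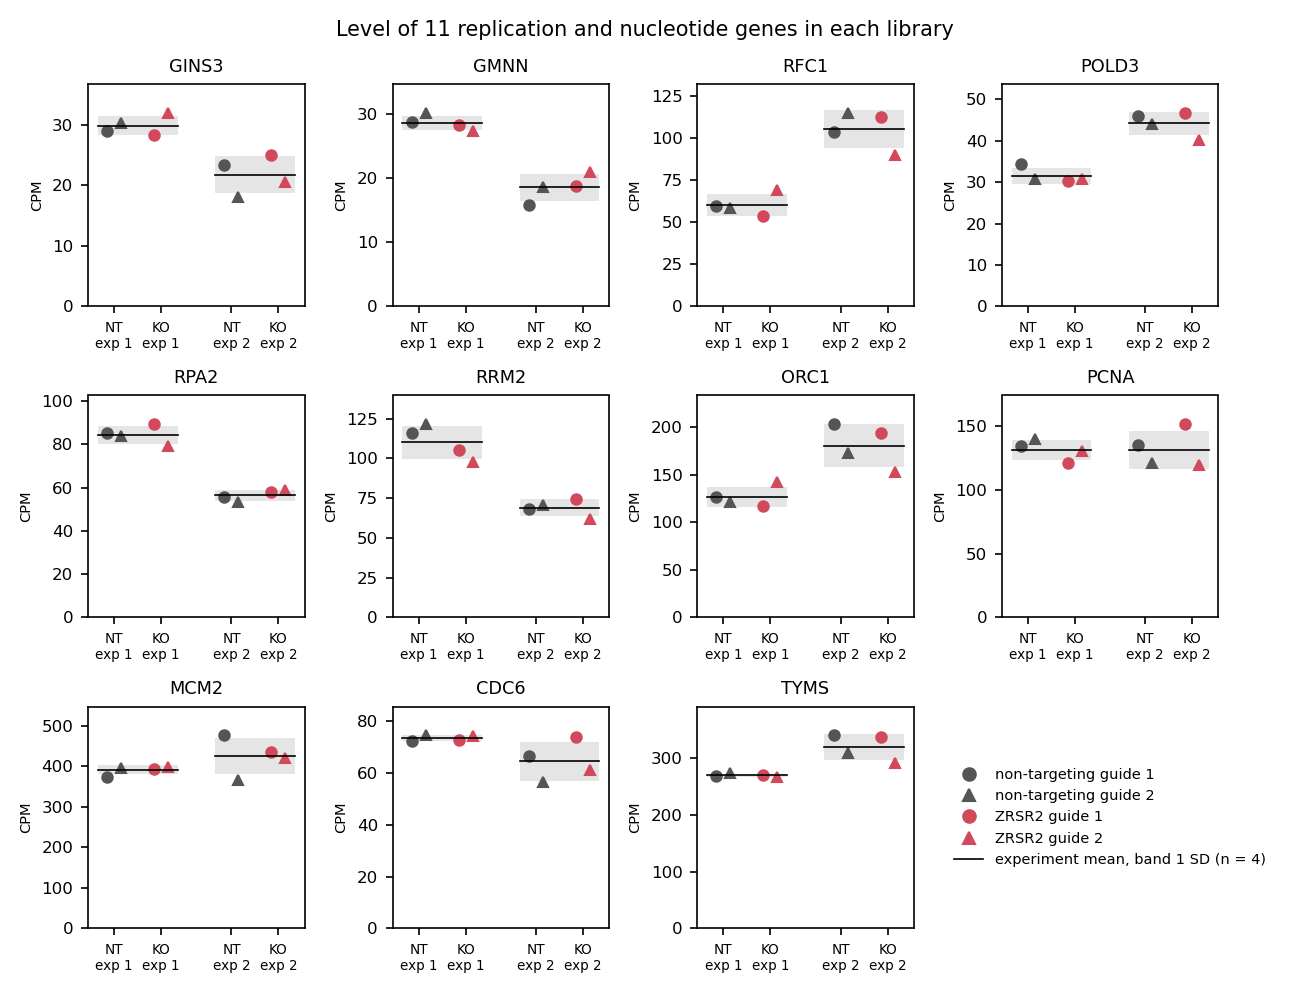
Level in CPM of 11 members in every library, by experiment and guide, with the mean and a band of 1 SD for each experiment. RFC1, ORC1 and POLD3 were higher in experiment 2, GINS3, GMNN, RPA2 and RRM2 lower, and PCNA had the same mean in both.

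Among 9 polymerase and primase genes, 1 rose and 3 fell, beside 29.6% and 28.6% of all genes. POLD3, an accessory subunit of DNA polymerase delta, went from 30.2, 30.8, 34.4 and 30.9 CPM to 46.6, 40.3, 45.9 and 44 CPM, without overlap (log2 0.49, SE 0.08, edgeR adjusted p = 5.14e-04). The catalytic subunit POLD1 (0.04) and POLD2 (−0.01) did not pass. POLA1 fell by 0.39 and its partner POLA2 by 0.25 on the log2 scale, and POLE, the catalytic subunit of DNA polymerase epsilon, fell by 0.31. POLA1 read 49.8, 49.4, 49.8 and 48.3 CPM and then 42.5, 38.3, 35.3 and 35.3 CPM. The primase genes PRIM1 (0.22) and PRIM2 (−0.03) and the epsilon subunit POLE2 (0.17) did not pass. Thus both catalytic subunits that fell were those of polymerases alpha and epsilon, and POLD1 of polymerase delta had an estimate near 0.

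RPA, the complex that coats single-stranded DNA, changed unevenly. RPA2 fell from 89.2, 79.3, 85.3 and 83.8 CPM to 58.1, 58.8, 55.5 and 53.1 CPM (log2 −0.58, SE 0.07, edgeR adjusted p = 5.65e-05). RPA1, the largest subunit, rose from 199 ± 1.63 to 242 ± 11.9 CPM (0.28), and RPA3 stood at 10.1 ± 0.663 and 12.1 ± 1.02 CPM (0.26, adjusted p = 0.0573). All 4 libraries of each experiment kept apart in RPA1 and in RPA2. The ratio of RPA2 to RPA1, chosen after the values were seen, was 0.404 to 0.446 in experiment 1 and 0.221 to 0.258 in experiment 2. FEN1, the nuclease that trims Okazaki fragment flaps, fell from 131 ± 0.733 to 97 ± 12.5 CPM (−0.44). LIG1, the ligase that then seals the nick, rose from 144 ± 2.87 to 169 ± 9.65 CPM (0.23).

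In nucleotide synthesis 3 of 4 genes rose and 1 fell, beside 29.6% and 28.6% of all genes. RRM2 had the largest fall of the set, from 105, 97.8, 116 and 121 CPM to 74.6, 61.8, 68.2 and 71 CPM. The experiments did not overlap, and the means of 110 ± 10.5 and 68.9 ± 5.4 CPM made it 1.59-fold lower (log2 −0.67, SE 0.08, edgeR adjusted p = 4.34e-05). RRM1, the large subunit of the same reductase, rose from 130 ± 6.81 to 158 ± 13.2 CPM (0.28). The ratio of RRM2 to RRM1, chosen after the values were seen, was 0.747 to 0.901 in experiment 1 and 0.432 to 0.439 in experiment 2. By guide, the ratio was 0.859 and 0.747 with ZRSR2 guides and 0.901 and 0.872 with non-targeting guides in experiment 1, and 0.434 and 0.437 against 0.439 and 0.432 in experiment 2. The ZRSR2 libraries lay below the controls in experiment 1 and overlapped them in experiment 2.

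TYMS, which makes thymidylate from deoxyuridylate, read 271, 267, 269 and 273 CPM in experiment 1 and 338, 291, 340 and 308 CPM in experiment 2. Each library of experiment 2 lay above each of experiment 1, and the log2 change was 0.24 (edgeR adjusted p = 0.0126). TK1 rose from 120 ± 7.41 to 141 ± 10.6 CPM (0.23). CLSPN stood at 143 ± 13.2 and 124 ± 21.1 CPM, a change of −0.20 that did not pass (adjusted p = 0.159 by edgeR).

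Of the 23 calls between experiments, 17 held when any 1 of the 8 libraries was left out. TYMS, LIG1 and RRM1 lost theirs without non-targeting guide 1 of experiment 1, with edgeR adjusted p-values of 0.0569, 0.0696 and 0.0618. TK1 lost its call in 3 of the 8 fits (up to 0.0825), POLA2 in 4 (up to 0.0661) and GINS2 in 5 (up to 0.0957). Other members gained a call when a library was left out. MCM4, MCM5 and ORC6 passed without non-targeting guide 1 of experiment 2 (edgeR adjusted p = 0.0221, 0.0126 and 0.0219), and RFC2, MCM6, CDT1 and MCM3 without non-targeting guide 2 of that experiment. PRIM1 (0.00931) and RPA3 passed without ZRSR2 guide 2 of experiment 2, and CDT1, DBF4 and CLSPN without ZRSR2 guide 1 of experiment 2. By call, an E2F word lay in 3 of 8 promoters of genes that rose, 6 of 12 of genes that fell and 4 of 19 of genes that did not pass.

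Other genes of the pathway were read from further lists. Of 39 further replication genes, 0 passed between genotypes, and between experiments 6 rose and 16 fell, beside 29.6% and 28.6% of all genes, with a median log2 change of −0.07. The initiation cyclins CCNE1 (−0.78) and CCNE2 (−0.83) fell, as did the origin subunit ORC5 (−0.85). POLE3, a histone-fold subunit of polymerase epsilon, went from 70.5, 68.4, 70.7 and 77.2 CPM to 51, 47.3, 47.6 and 47.9 CPM (−0.57). The fork protection partners TIMELESS (0.44) and TIPIN (−0.67) moved in opposite directions, and CCNA2 (0.28), CDC7 (0.32), WDHD1 (0.34), ATAD5 (0.38) and TOP2A (0.40) rose. The remaining genes that fell were CHAF1B (−0.49), DONSON, RNASEH2C, UHRF1, RECQL4, POLE4, MCMBP, CHTF8, MCM9, DSCC1 and KIAA0101 (−0.20). Of 26 mitosis genes, 16 rose and 2 fell between experiments, beside 29.6% and 28.6% of all genes, with a median of 0.26. BUB1 rose from 144 ± 6.28 to 315 ± 66.2 CPM (1.12), while CCNB1 (−0.26) and UBE2C (−0.28) fell. Between genotypes 0 mitosis genes passed, and the median was −0.07, with 25 of 26 below 0, beside 51.3% of all genes.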

How the data were processed

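Messenger RNA of 8 SET-2 libraries was measured by sequencing. The authors deposited one table of expected counts from RSEM, with a row per gene symbol. RSEM 1.2.30, cutadapt 1.11 and build hg19 are named in the submitters' processing notes; aligner, annotation and use of strand are not given in the sources used here. The expected counts were already whole numbers, so rounding them changed nothing. Libraries held 31106042 to 71521173 counts, and a floor of 3 counts was worth 0.0419 to 0.0964 CPM. Such floors cover counting error only, whereas the 95% intervals of log2 changes also include the spread between libraries.

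Genes were filtered with filterByExpr on genotype, scaled by TMM and tested with edgeR 4.0.16 (quasi-likelihood F test, Benjamini-Hochberg over 14898 genes, threshold 0.05) in R 4.3.3. Genotype was the sole term of the main fit; effects within experiments, their difference and the change between experiments came from a fit of genotype by experiment, and guides from a fit of 3 groups. Standard errors were derived from F. Deviations from the genotype means correlated at 0.678 to 0.846 in the 8 pairs of libraries of one experiment and at −0.816 to −0.709 in pairs of different experiments, so the experiment number was taken as pairing the samples. No 2 libraries agreed within sampling noise (over 28 pairs, chi-square divided by its degrees of freedom was at least 3.06). Alternatives were the block, DESeq2 1.42.0, its size factors, no filter, at least 10 counts in every library and leaving out each library. The tests were tried on simulated data.

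Members and lists were chosen with earlier results of these data known. Named genes were, between experiments, the largest change of each role past the threshold and the 3 largest rises and falls; in genotype and guide contrasts the 5 smallest unadjusted p-values, in within-experiment contrasts the 3 smallest; and PCNA, MCM2, CDC6, RRM2 and TYMS always. Values of other members were added after they were seen. Gene overlaps and transcript lengths came from positions in GENCODE 29, and promoters from RefSeq (GRCh38.p14). The authors' build, hg19, differs from that of the promoters, and no hg19 gene coordinates were used here. A further ZRSR2 guide in the design text was not analysed here.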

Additional observations from a re-analysis of the deposited data

Results flagged for a closer look

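In 104 groups of 4 libraries, covering the members given library by library and the library totals, 9 had a single library far from the other 3 by Dixon's criterion, which chance meets in about 1 group in 20. With ZRSR2 guides, guide 2 of experiment 2 stood apart in CDC6, at 61 CPM against 72.9 to 74.4, and in CDT1, at 140 CPM against 108 to 113. Guide 1 of experiment 2 stood apart in MCM6, at 284 CPM against 235 to 237. Among the non-targeting libraries, guide 1 of experiment 2 had a total of 71521173 counts against 31106042 to 36544665, and 140 CPM of CDT1 against 117 to 120. Non-targeting guide 2 of experiment 2 had 22.1 CPM of ORC6 against 29.9 to 31.2. Within experiment 1, POLD3 was at 34.4 CPM in non-targeting guide 1 against 30.2 to 30.9, and POLE2 at 8.4 CPM in ZRSR2 guide 1 against 11.2 to 11.6. Within experiment 2, GINS2 was at 29.6 CPM in non-targeting guide 2 against 34.7 to 35.1. Of these, 6 were libraries of experiment 2 set against a whole genotype, whose other libraries include those of experiment 1.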

How the results depend on the processing

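Of 733 alternative values over 55 results, 709 kept both direction and side of the threshold, 20 reversed, 3 gained and 1 lost a call. These 55 results do not cover every member between experiments. The calls that GINS2 lost in 5 fits, POLA2 in 4 and TK1 in 3 are not counted among them. The counts of 0 members past the adjusted threshold in genotype, within-experiment, difference and guide contrasts held under every alternative run, the replicate block included. Counts at an unadjusted p under 0.05 did not all stay at 0. For the effect in experiment 2 they rose above 0 whichever library of that experiment was left out. For the difference they did so without ZRSR2 guide 2 or either non-targeting library of that experiment. These fits leave 1 library in a group, and the share of all genes at that p was not taken for them. For guide 2 with the replicate block the count was 2, beside 4.89% of all genes. In some other fits the count was also above 0. Between experiments 23 members passed, 24 with guide as replicate block (10 higher, 14 lower), 24 with DESeq2, 25 without a filter and 25 with at least 10 counts in every library. With a library left out it was 17 to 28: 17 without non-targeting guide 1 of experiment 1 and 28 without non-targeting guide 2 of experiment 2. The calls over all genes moved as well, with 8671 of 14898 in the main fit, 7246 of 15157 in the first of these fits and 9040 of 15163 in the second. MCM3 passed under 5 of the alternatives. PCNA between experiments was −0.0037 with guide as replicate block. With a library left out, log2 values that reversed ranged, between genotypes, from −0.0016 to 0.12 in MCM2, −0.10 to 0.021 in PCNA, −0.27 to 0.00094 in RRM2 and −0.10 to 0.042 in TYMS; between experiments, from −0.084 to 0.083 in PCNA; with guide 1, from −0.0044 to 0.33 in RFC4; with guide 2, from −0.027 to 0.24 in GINS2, −0.60 to 0.056 in RRM2 and −0.31 to 0.015 in TK1; and between guides, from −0.018 to 0.35 in CDT1 and −0.26 to 0.00013 in MCM6. None of these had passed a test. The cause was not tested. No scaling moved the median of all genes by over 0.1 on the log2 scale.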

Other observations

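Of 33 further nucleotide synthesis genes, 14 fell and 6 rose, beside 28.6% and 29.6% of all genes, with a median log2 change of −0.11, between experiments, and 0 passed between genotypes. The purine pathway enzymes PFAS, from 171 ± 3.45 to 91.6 ± 14.7 CPM (−0.91), and GART, from 432 ± 18.3 to 265 ± 25.8 CPM (−0.71), fell, as did the pyrimidine pathway enzymes CAD (−0.52) and UMPS. UMPS, which makes uridine monophosphate, read 69.4, 67.9, 69.6 and 69.9 CPM in experiment 1 and 42.5, 43.3, 42.4 and 40.1 CPM in experiment 2 (−0.72). SAMHD1, which degrades deoxynucleotides, fell by 0.74, IMPDH1 by 0.69 and NME1 by 0.73 on the log2 scale. ADSL, DCTD, ATIC, CTPS1, DHODH, ADSS and DTYMK (−0.30) also fell.

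Among the 6 genes that rose was DCK, a salvage enzyme. DCK, which phosphorylates deoxycytidine, rose from 40.8 ± 0.779 to 58.6 ± 7.08 CPM (0.52). ADSSL1, an adenylosuccinate synthase, rose from 2.42 ± 0.284 to 9.05 ± 1.59 CPM (1.90). DUT (0.20), SHMT1 (0.30) and CTPS2 (0.60) also rose. CDA, at or below 0.0562 CPM in experiment 1, was at 0.492 to 1.25 CPM in experiment 2.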
